A study of Mus musculus with 26 samples.

Results

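The SLAM family receptors were followed in mouse endothelial cells exposed to interferon gamma (IFNγ) in living animals. Their 8 genes were Slamf1, Slamf6, Slamf7, Slamf8, Slamf9, Cd48, Cd84 and Ly9. All probe sets with 1 of these symbols as their single gene in the array annotation were taken, which gave 78 of the 65535 probe sets in the table, for 8 of its 5109 genes. Slamf1 had 10 probe sets, Slamf6 11, Slamf7 12, Slamf8 7, Slamf9 6, Cd48 7, Cd84 12 and Ly9 13.

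SLAM family receptors are immunoglobulin superfamily proteins best known from white blood cells, where most of them bind a copy of themselves on a neighbouring cell. Slamf1, Slamf6, Slamf7, Cd84 and Ly9 signal through cytoplasmic tyrosine motifs that recruit small SH2 adaptors of the SAP family, whereas Slamf8 and Slamf9 have short tails without those motifs. Cd48 is held in the membrane by a lipid anchor and binds Cd244 rather than itself. In mouse macrophages, Slamf8 is known as a gene induced by IFNγ and as a restraint on the phagocyte NADPH oxidase.

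CD31+/CD146+ cells were sorted from digested tissue, and their RNA was measured on 26 Affymetrix arrays in 9 groups. MCA313 tumours grew in PIG-Pdgfb-Cre-IFNγ-del mice, whose labels place the IFNγ receptor in endothelial cells alone through a Cre driven by Pdgfb. Their tumour cells were left uninduced (0 h) on 3 arrays, had made IFNγ over 24 h on 2 and over 48 h on 2. J558L tumours, from a plasmacytoma line, grew in Rag-/- mice, which carry the IFNγ receptor in all cells and lack mature T and B cells. Endothelium came from these tumours after 24 h of IFNγ-GFP production (3 arrays) or without it (0 h, 2 arrays), and from the kidneys of such mice at 24 h (3 arrays) and 0 h (3 arrays). Tumours called 16.113 also grew in Rag-/- mice, which received tumour-specific T cells 120 h before sampling. The T cells could make IFNγ in the competent group (IFNγ+/+, 3 arrays) and could not in the deficient group (IFNγ-/-, 5 arrays), so both groups contained transferred T cells. All animals were female and aged 4 to 6 months, or 3 to 4 months with 16.113 tumours. The labels number the replicates without saying whether each was its own animal, so p-values measure the spread between these arrays, which may be technical.

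Values are deposited log2 expression values. MCA313 tumour, J558L tumour, J558L kidney and 16.113 arrays appear to have been normalized as 4 separate sets, so levels were compared within a set only. Pecam1, which encodes the sorting marker CD31, had values of 13.46 to 13.99 in every array, close to the highest value of any probe set (14.34). It changed by -0.12 to -0.04 (log2) over the 5 comparisons against a control group. The leukocyte gene Ptprc (CD45) and the macrophage gene Cd68 were also above the array median in 26 of 26 arrays. They were picked, with their values in view, from lists of 2 and 9 tested genes, so they do not stand for those lists. The mean of the 9, Cd68 included, was 6.21 to 6.54 in MCA313 arrays at 0 h (MCA313 array medians 5.78 to 5.88). In 16.113 tumours with deficient T cells it was 6.79 to 8.25 (array medians 5.62 to 5.79). Genes were read at the probe set with the highest mean, and 4386 of 5109 were above the array median in at least 2 arrays. A level above the median is therefore a weak mark of a gene.

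RefSeq places all 8 genes on mouse chromosome 1. Ly9, Slamf7 and Cd48 follow each other directly, and Slamf1, Cd84 and Slamf6 come after 1 further coding gene. Slamf9 lies 14 coding genes beyond Slamf6, and Slamf8 lies 4 coding genes beyond Slamf9. The promoters of 7 members were found in the RefSeq table of GRCm38.p6, and Ly9 was not among them. Each window, from 250 bases before to 50 bases after the gene start, was searched on both strands for the interferon regulatory factor element (GAAA, any 2 bases, GAAA). Slamf8 alone of the 7 held a match, on the strand opposite to the gene and 15 to 6 bases before the gene start. Of all 32851 promoters in that table, 3.44% held the element. The 250 bases before the start of Slamf8 (minus strand, chr1:172590569-172590818) and of its short-tailed relative Slamf9 (plus strand, chr1:172475110-172475359) are shown 5′ to 3′, because Slamf8 passed the test below and Slamf9 did not. Capitals mark the match, which is a description of the sequence and no evidence of binding.
Slamf8: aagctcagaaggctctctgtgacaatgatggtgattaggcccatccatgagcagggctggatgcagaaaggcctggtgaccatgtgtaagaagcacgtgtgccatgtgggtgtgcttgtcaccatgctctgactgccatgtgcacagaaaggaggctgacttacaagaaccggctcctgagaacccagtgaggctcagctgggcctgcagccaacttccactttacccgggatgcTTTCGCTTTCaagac
Slamf9: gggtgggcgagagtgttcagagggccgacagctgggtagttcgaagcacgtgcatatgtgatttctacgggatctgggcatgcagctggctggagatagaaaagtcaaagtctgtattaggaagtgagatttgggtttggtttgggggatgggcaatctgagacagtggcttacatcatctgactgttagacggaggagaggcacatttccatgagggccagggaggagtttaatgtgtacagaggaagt

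The mean of every Slamf8 probe set was higher in each IFNγ group than in its control, in tumour and in kidney endothelium, and most of these rises passed the test. No probe set of the other 7 members passed the probe-set-level test in any comparison. That test (limma, Benjamini-Hochberg adjusted p below 0.05) was run over the 45204 probe sets that passed a filter on low values. The filter kept 40 of the 78 SLAM probe sets, among them all 7 of Slamf8. Of the Slamf8 probe sets, 5 of 7 rose in MCA313 at 24 h and 5 of 7 at 48 h, against 0.206% and 0.243% of all tested probe sets called higher. In J558L tumour endothelium 6 of 7 rose, against 0.122% of all. In kidney endothelium 5 of 7 rose, against 0.845% of all. With IFNγ-competent T cells 4 of 7 rose, against 1.36% of all. None fell.

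**Figure D1:**
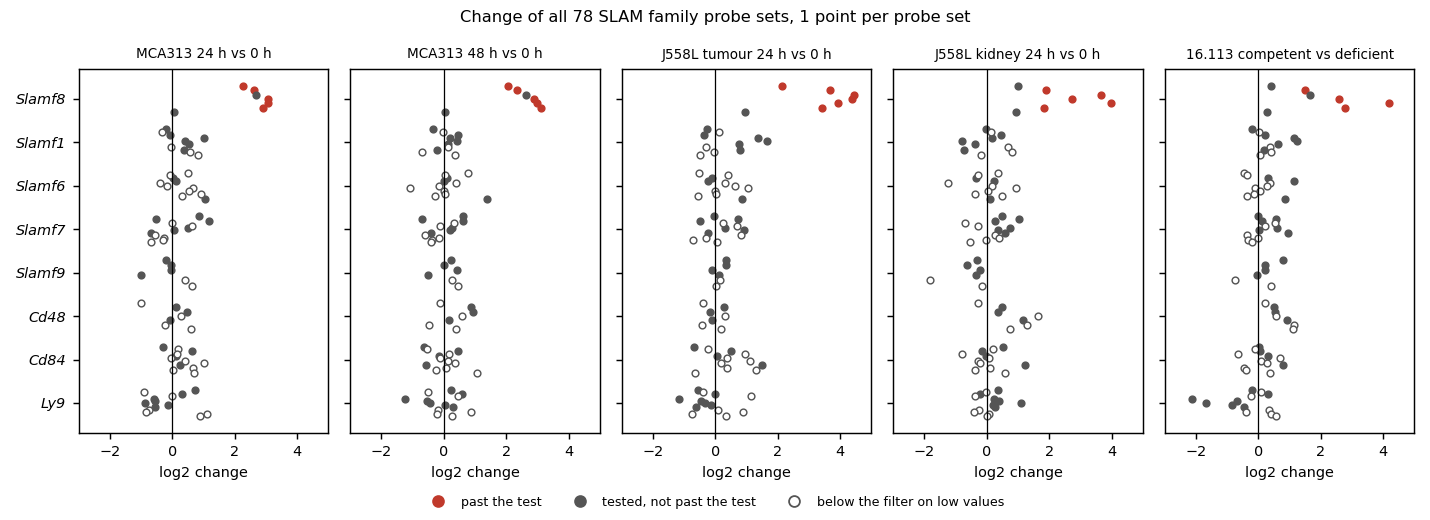
Log2 change (horizontal axis) of all 78 SLAM family probe sets, 1 point per probe set, by gene and comparison against a control. Filled red points passed the test, grey points did not and open points were below the filter on low values. Slamf8 holds every red point, with the largest change at 4.44 in J558L tumours.

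The Slamf8 probe set with the steadiest response was 17229937. In J558L tumour endothelium its values were 10.62, 10.35 and 10.64 at 24 h, against 6.93 and 7.28 at 0 h. Its change of 3.43 ± 0.37 (SE), or 10.8-fold, had the smallest p of all 45204 probe sets in that comparison (adjusted p = 0.000558). In kidney endothelium the same probe set had 8.88, 8.44 and 8.14 at 24 h, against 6.89, 6.39 and 6.72 at 0 h, a change of 1.82 ± 0.33 (adjusted p = 0.00594). Both pairs of groups were clear of each other, by more than 1 log2 unit.

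In 16.113 tumours probe set 17229937 of Slamf8 had 8.59, 8.96 and 9.85 with competent T cells. With deficient T cells it ranged over 6.14, 6.21, 6.30, 6.53 and 6.69. The change was 2.76 ± 0.30, or 6.77-fold (adjusted p = 2.9e-05). In MCA313 tumours it had 5.90, 6.90 and 7.34 at 0 h, 9.66 and 9.58 at 24 h, and 10.00 and 9.64 at 48 h. The changes from 0 h were 2.91 ± 0.37 at 24 h (adjusted p = 0.0012) and 3.11 ± 0.37 at 48 h (adjusted p = 0.000227). This probe set passed the test in all fits that left out 1 array, in each of the 5 comparisons.

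Probe set 17229936 of Slamf8 gave the largest change in 16.113 tumours. Its values were 10.20, 9.20 and 10.94 with competent T cells, against 6.24, 6.61, 6.09, 5.75 and 4.98 with deficient T cells, a change of 4.18 ± 0.51 or 18.2-fold (adjusted p = 9.5e-05). In kidney endothelium it had 10.62, 9.09 and 9.12 at 24 h, against 5.46, 5.80 and 5.67 at 0 h, a change of 3.96 ± 0.57 (adjusted p = 0.000958). Neither pair of groups overlapped. In J558L tumour endothelium its values were 11.80, 11.77 and 11.71 at 24 h, against 7.67 and 7.98 at 0 h, a change of 3.94 ± 0.64 (adjusted p = 0.0118). The kidney control values lay below the array median and the tumour control values above it.

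**Figure D2:**
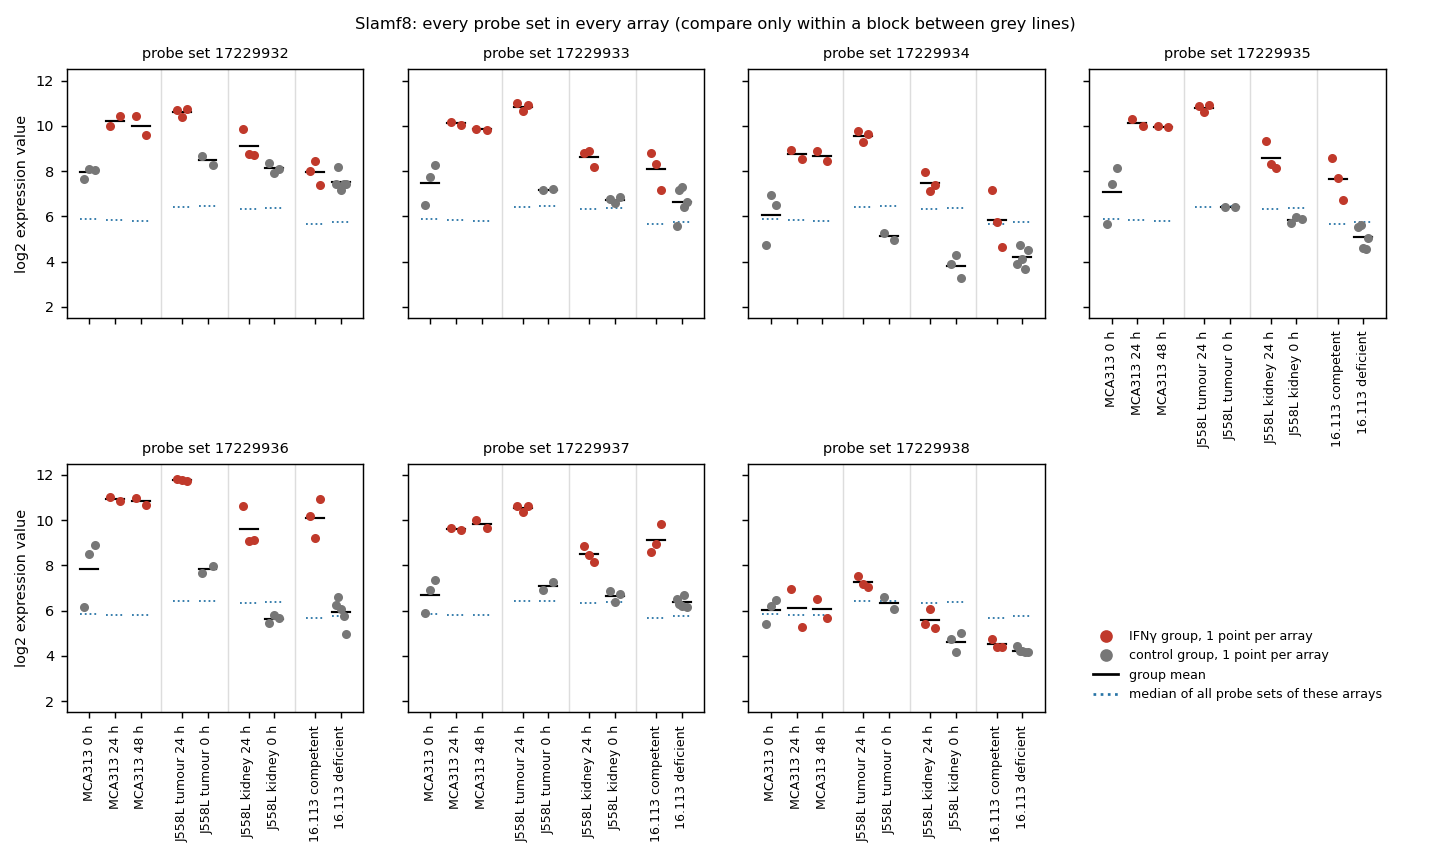
Deposited log2 expression value (vertical axis) of the 7 Slamf8 probe sets in every array. Red points are IFNγ groups, grey points control groups, black bars group means and dotted blue lines the median of all probe sets. At all 7 probe sets the 24 h arrays of J558L mice lie above their 0 h arrays, in tumour and in kidney, and in 16.113 tumours the groups are separate at 3 of 7. Of all 65535 probe sets, the groups are separate in either direction at 25.0% in J558L tumour, 16.7% in kidney and 6.35% in 16.113 tumours.

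The 7 probe sets did not respond alike. Probe set 17229932 had the highest mean over all arrays, and it was the one that stood for Slamf8 in the gene-level test over 4386 genes. Its control values, from 7.15 to 8.65, lay above the medians of their arrays. It rose by 2.28 ± 0.36 in MCA313 at 24 h (adjusted p = 0.00129), by 2.07 ± 0.36 at 48 h (adjusted p = 0.00406) and by 2.14 ± 0.36 in J558L tumours (adjusted p = 0.00581). In kidney its change was 0.99 ± 0.32 (adjusted p = 0.118) and in 16.113 tumours 0.42 ± 0.29 (adjusted p = 0.428), so neither passed. Read through this probe set, Slamf8 was 1 of the genes called in the first 3 comparisons, where 0.684%, 1.37% and 0.547% of all genes were called in either direction. It was not among the 3.17% called in kidney or the 7.36% called in 16.113 tumours. With the average of the 7 probe sets in its place, Slamf8 passed in kidney (2.29 ± 0.30, adjusted p = 3.05e-05) and in 16.113 tumours (1.91 ± 0.27, adjusted p = 6.63e-05).

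Probe set 17229934 spanned the widest range of Slamf8 responses. In J558L tumour endothelium it had 9.76, 9.28 and 9.63 at 24 h, against 5.28 and 4.95 at 0 h, a change of 4.44 ± 0.60 or 21.8-fold (adjusted p = 0.00336). In kidney endothelium it had 7.94, 7.14 and 7.37 at 24 h, against 3.89, 4.27 and 3.28 at 0 h, a change of 3.67 ± 0.53 (adjusted p = 0.001). In 16.113 tumours it had 7.16, 5.76 and 4.63 with competent T cells, against 3.88, 4.74, 4.10, 3.68 and 4.50 with deficient T cells. These last groups overlapped, and the change of 1.67 ± 0.48 did not pass (adjusted p = 0.0563). The control means of this probe set in J558L mice and 16.113 tumours lay below the medians of their arrays, which leaves the size of its changes uncertain.

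Probe sets 17229933 and 17229935 of Slamf8 rose in all 5 comparisons, by 1.48 to 3.67 and by 2.59 to 4.39. With 1 array left out, 17229933 passed in 0 of 6 fits in kidney (largest adjusted p = 0.155), in 1 of 5 in each MCA313 comparison, in 4 of 5 in J558L tumours and in 3 of 8 in 16.113 tumours. Probe set 17229935 passed in 6 of 6 in kidney and 8 of 8 in 16.113 tumours, but in 2 of 5 in each MCA313 comparison. Probe set 17229938 passed in none of the 5 comparisons, with changes between 0.05 and 0.94. In 16.113 tumours the array of competent replicate 3 was the lowest of its group at 5 of the 7 probe sets and the highest at the other 2, which were 17229936 and 17229937. In MCA313 tumours control replicate 1 was the lowest of the 0 h arrays at 7 of 7 probe sets.

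**Figure D3:**
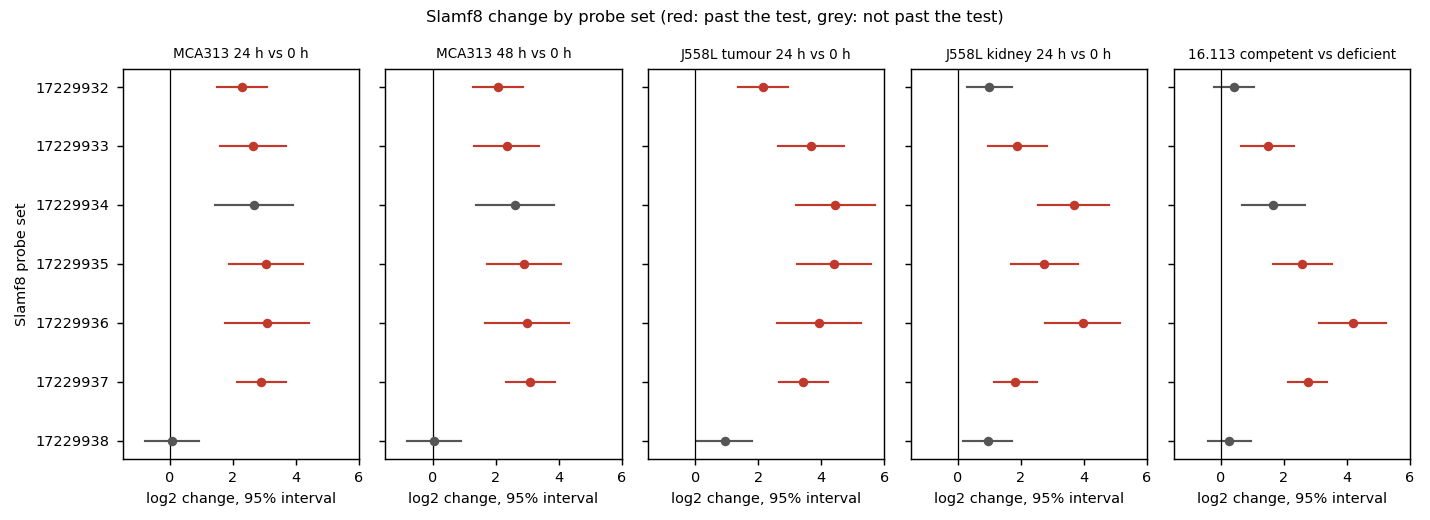
Log2 change with its 95% interval (horizontal axis) for each Slamf8 probe set in each comparison against a control. Red marks changes past the test and grey those that did not pass. Probe set 17229937 is red in all 5 panels and 17229938 in none.

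The median change of the 7 Slamf8 probe sets was 2.68 and 2.62 in MCA313 at 24 h and 48 h, 3.67 in J558L tumour, 1.88 in kidney and 1.67 in 16.113 tumour endothelium. Over all tested probe sets the medians lay between -0.06 and -0.02. The MCA313 comparisons share their 0 h arrays. Counts of called Slamf8 probe sets fell to 1 of 7 in MCA313 at 24 h without control replicate 1 or without 24 h replicate 2, and to 2 without 24 h replicate 1. At 48 h they fell to 1 without control replicate 1 or 48 h replicate 1, and to 2 without 48 h replicate 2. In J558L tumours 1 was left without control replicate 1. With only the arrays of the sets compared in the fit, 0 of 7 passed in both MCA313 comparisons and in J558L tumours, 1 in kidney and 2 in 16.113 tumours, and at 48 h in MCA313 3 passed without the filter or with quantile normalization. In J558L tumours the gene-level call ended without control replicate 1 (adjusted p = 0.0623) or 2 (adjusted p = 0.0605), as it did in MCA313 without 24 h replicate 2 (adjusted p = 0.0807) or 48 h replicate 1 (adjusted p = 0.223).

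Differences between the responses were tested directly, and no SLAM probe set or gene passed. From 24 h to 48 h in MCA313 tumours the Slamf8 changes lay between -0.28 and 0.20, and 0 of 7 passed. An unadjusted limma p below 0.05 was found for 0 of 7, against 5.13% of all tested probe sets. There, 0.0199% of all probe sets and 0.0684% of all genes were called in either direction. The J558L response in tumour exceeded that in kidney at 6 of 7 Slamf8 probe sets, and 4 had an unadjusted p below 0.05, against 4.45% of all tested. The difference was 1.61 ± 0.50 at 17229937 (adjusted p = 0.696) and -0.03 ± 0.86 at 17229936. In that test 0.00442% of probe sets and 0.0228% of genes were called at all. The 16.113 response was below the J558L tumour response at 6 of 7 Slamf8 probe sets, with adjusted p of at least 0.538. Here too 4 of 7 had an unadjusted p below 0.05, against 5.81% of all tested. In this test 0.0% of probe sets and 0.0% of genes were called. The MCA313 response at 24 h was below the J558L tumour response at 6 of 7, where 0.00221% of probe sets and 0.0% of genes were called. There 0 of 7 had an unadjusted p below 0.05, against 2.95% of all tested. These last 3 tests share J558L arrays.

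Among the receptors with signalling tails, Slamf6, found on T, NK and B cells, was the only one past the gene-level test. Probe set 17219440 had 6.96, 7.22 and 7.05 in 16.113 endothelium with competent T cells, against 5.72, 6.36, 6.15, 6.19 and 5.32 with deficient T cells. The groups did not overlap. The change of 1.13 ± 0.31 passed over 4386 genes (adjusted p = 0.0272) and missed over 45204 probe sets (adjusted p = 0.0546). In that gene-level test 7.36% of all genes were called, so 1 of 8 members is close to the background. Of the 11 Slamf6 probe sets 3 passed the filter, and the other two of these changed by 0.86 and 0.32, neither past the test. Of the 8 below the filter 3 had a higher mean and 5 a lower one. The gene-level call ended with array weights (adjusted p = 0.25), with only the 16.113 arrays in the fit (adjusted p = 0.0906), and without competent replicate 2 or 3 or deficient replicate 1 or 5 (adjusted p between 0.0515 and 0.0855). In the other 4 comparisons this probe set changed by -0.24 to 0.22.

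Slamf7, known from NK cells and macrophages, had 5.38, 5.43 and 5.57 at probe set 17229785 in MCA313 at 0 h, 6.45 and 6.85 at 24 h, and 6.00 and 6.13 at 48 h. The groups did not overlap, but the change at 24 h of 1.19 ± 0.55 did not pass (gene-level adjusted p = 0.431). Of its 12 probe sets 5 had a higher mean at 24 h and 7 a lower one (median -0.14). The 24 h arrays lay wholly above the 0 h arrays at 2 and wholly below them at 2. The filter kept 6 of the 12, and 4 of those had a higher mean at 24 h. One of them, 17229783, had 5.36, 4.83 and 4.95 at 0 h, 5.96 and 5.88 at 24 h, and 5.38 and 5.92 at 48 h. Its groups were separate at both times, and its change at 24 h of 0.87 ± 0.39 did not pass (adjusted p = 0.505). Slamf1, a self-ligand of lymphocytes and myeloid cells, changed by at most 0.75 at its brightest probe set, 17219413. Its values there were 8.35, 7.53 and 7.37 in J558L tumour endothelium at 24 h, against 6.82 and 7.17 at 0 h (adjusted p = 0.957). The change had an SE of 0.66, close to its own size. Over the 6 tested Slamf1 probe sets, changes against a control ran from -0.79 in kidney to 1.65 in J558L tumour, with none past the test.

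Cd84, found on platelets and lymphocytes among others, changed by -0.15 to 0.31 at its brightest probe set. Ly9, a self-ligand of T and B cells, changed by -0.22 to 0.58 at its own, and none of these passed. Ly9 probe set 17229772 gave the largest fall of the family. It had 5.69, 3.49 and 3.05 with competent T cells in 16.113 tumours, against 5.78, 6.49, 7.44, 6.95 and 4.29 with deficient T cells. The groups overlapped, the change of -2.11 ± 0.75 did not pass (adjusted p = 0.128), and of the 7 Ly9 probe sets that passed the filter 6 had a lower mean and 1 a higher one.

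Cd48, the lipid-anchored ligand of Cd244, had a higher mean at 7 of its 7 probe sets with competent T cells (median 0.56) and at 6 of 7 in kidney endothelium at 24 h (median 0.75). Only 3 of the 7 passed the filter, all 3 of them higher in both comparisons and none past the test. Of all tested probe sets, 45.7% with competent T cells and 48.5% in kidney had a higher mean. At 24 h in J558L tumours 3 Cd48 probe sets had a higher mean and 4 a lower one (median -0.10). In MCA313 the counts were 4 and 3 at 24 h (median 0.13) and 5 and 2 at 48 h (median 0.40). Probe set 17219402 had 7.15, 6.91 and 7.08 in kidney at 24 h, against 5.60, 5.80 and 6.27 at 0 h. These groups were separate, yet the change of 1.16 ± 0.39 did not pass (adjusted p = 0.194). The brightest Cd48 probe set, 17219400, had 5.08, 4.86 and 5.89 in MCA313 at 0 h, 5.28 and 6.23 at 24 h, and 6.27 and 6.14 at 48 h. Its change at 48 h was 0.93 ± 0.37 (gene-level adjusted p = 0.279).

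Slamf9, the short-tailed relative whose promoter is shown above, passed the test in no comparison. Its brightest probe set, 17219550, had 7.09, 7.38 and 7.18 in J558L tumour endothelium at 24 h, against 6.85 and 7.77 at 0 h. The change was -0.10 ± 0.30, with a 95% interval of -0.73 to 0.53. In kidney each of its 6 probe sets had a lower mean at 24 h, with changes of -1.83 to -0.17, and of the 4 that were tested 0 passed with limma (0 with an unadjusted p below 0.05).

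**Figure D4:**
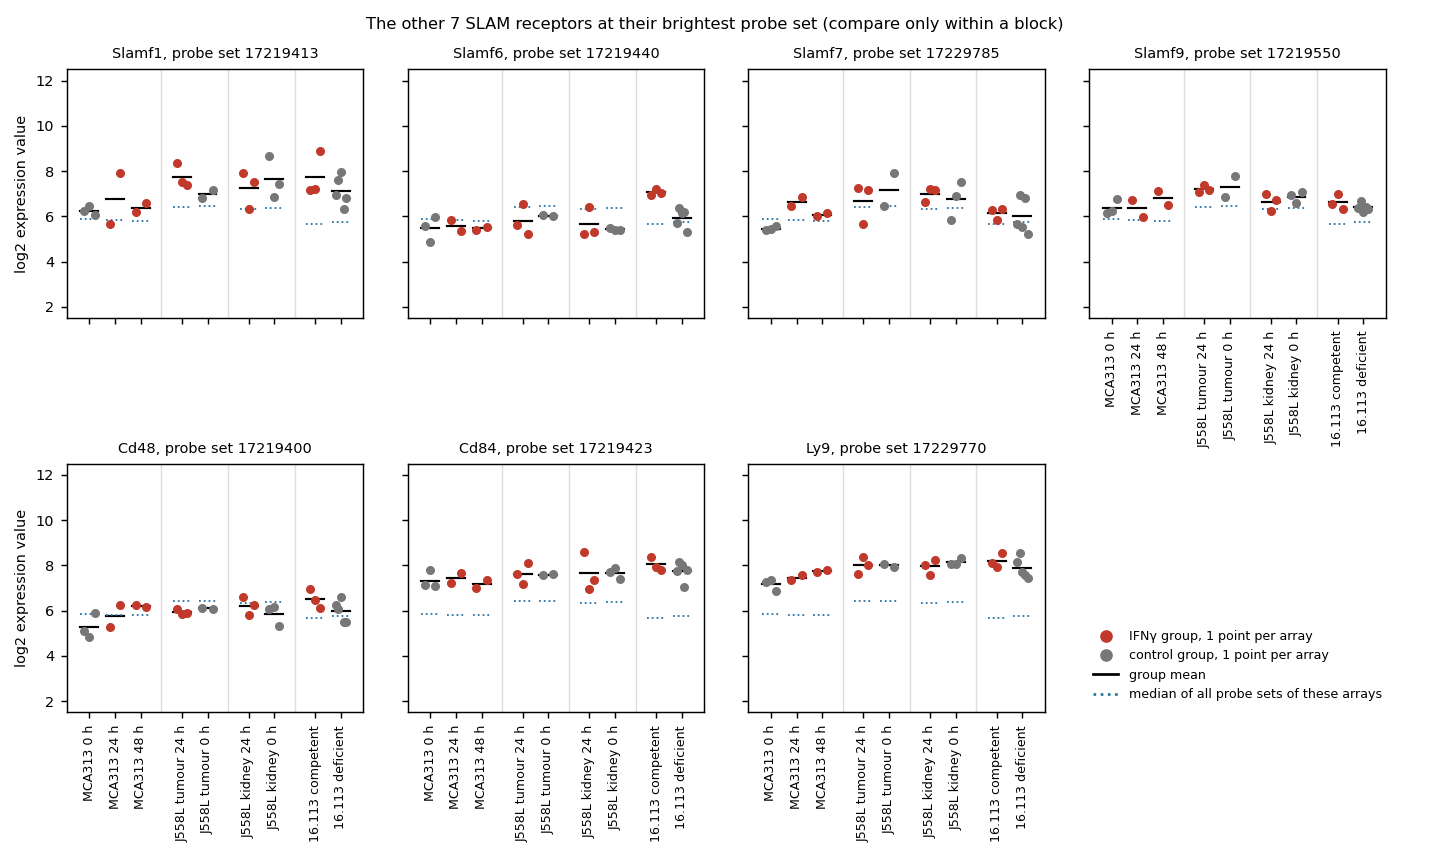
Deposited log2 expression value (vertical axis) of the brightest probe set of the other 7 SLAM receptors in every array, with IFNγ groups in red, control groups in grey, group means as black bars and the median of all probe sets as dotted blue lines. The 16.113 groups of Slamf6 are separate, and those of the other 6 genes overlap.

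Over the 71 probe sets of these 7 receptors, 0 of the 33 tested passed in any comparison with limma. An unadjusted p below 0.05 was found for 2 in MCA313 at 24 h (6.06%, against 9.19% of all tested probe sets), 2 at 48 h (6.06% against 10.3%), 0 in J558L tumour (against 5.73%), 1 in kidney (3.03% against 11.3%) and 4 in 16.113 tumour endothelium (12.1% against 17.9%). Groups did not overlap at 15 of the 71 in MCA313 at 24 h (21.1%), against 26.2% of all 65535 probe sets. The shares were 16.9% against 27.2% at 48 h, 19.7% against 25.0% in J558L tumour, 12.7% against 16.7% in kidney and 5.63% against 6.35% in 16.113 tumours. All of these shares lay below those of all probe sets.

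The adaptors and signalling partners of the family were hardly represented in the table. Of 19 listed symbols, which include an old and a current name of Cd244a, 5 genes were tested (Cd244a, Dock2, Fyn, Inpp5d and Sh2d1b2). With limma 0 passed in any comparison against a control (adjusted p from 0.0862 upward), where 0.547% to 7.36% of all genes were called. The lipid phosphatase gene Inpp5d changed by -0.56 ± 0.17 in kidney (adjusted p = 0.0862), and Dock2, an activator of Rac in leukocytes, by 0.86 ± 0.38 there (adjusted p = 0.306). Of 11 genes for the NADPH oxidase and the Beclin 1 complex, partners of Slamf8 and Slamf1 in phagocytes, Becn1 alone was tested. It changed by at most 0.29 in either direction.

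Because Slamf8 is also a macrophage gene, marker genes of blood cells were set beside it. Of 9 tested myeloid genes Fcgr4, an Fc receptor gene, rose in MCA313 by 3.67 ± 0.73 at 24 h and 3.33 ± 0.73 at 48 h. The other 8 did not pass in any comparison. Of all genes 0.684% and 1.37% were called in MCA313 at 24 h and 48 h. The summed log2 level of the 9 genes was 55.9 to 58.9 in MCA313 arrays at 0 h, 61.4 to 63.5 at 24 h and 62.1 to 62.8 at 48 h. It was 64.9 to 68.3 at 24 h, against 66.3 to 67.9 at 0 h, in J558L tumours, 61.5 to 64.9 at 24 h, against 61.3 to 61.8 at 0 h, in kidney, and 63.9 to 70.0 with competent, against 61.1 to 74.3 with deficient, T cells. No marker was listed at 0, but neither was any other probe set (lowest value 1.4), so this does not show that each marker was detected. Ptprc changed by -0.26 to 0.71 and Cd68 by -0.07 to 0.62 over the 5 comparisons, and neither passed.

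Of the other blood cell lists, 0 of 2 general leukocyte, 0 of 6 T and NK cell and 0 of 5 B cell genes passed. Over all genes 0.547% to 7.36% were called in these comparisons, so counts of 0 in lists this short are close to the background. Among 5 plasma cell genes Irf4, a transcription factor gene of lymphoid and myeloid cells, rose by 3.39 and 3.04 in MCA313 at 24 h and 48 h, by 2.90 in J558L tumour and by 2.51 in 16.113 tumour endothelium. In kidney Irf4 changed by -0.05. Sdc1 fell by 0.94 in 16.113 tumours. The summed level of the 5 plasma cell genes was 44.1 to 46.2 in MCA313 arrays at 0 h, 49.0 to 49.2 at 24 h and 47.7 to 49.975 at 48 h. It was 49.2 to 51.2 at 24 h, against 47.2 to 48.0 at 0 h, in J558L tumours, 44.8 to 45.3 at 24 h, against 45.1 to 46.2 at 0 h, in kidney, and 45.9 to 46.5 with competent, against 44.4 to 45.7 with deficient, T cells. These sums, which include Irf4, were separate between groups in all but kidney. The median change of the 5 genes was 0.14 and 0.17 in MCA313 at 24 h and 48 h. It was -0.09 in J558L tumour, -0.05 in kidney and -0.20 in 16.113 tumour endothelium, so the sums do not describe a rise of the genes as a set. The summed B cell level was 33.8 to 34.9 in MCA313 arrays at 0 h, 35.4 to 35.5 at 24 h and 35.2 to 35.4 at 48 h, and was thus separate from 0 h there, while it overlapped in the other 3 sets. Both the T and NK cell sums and the general leukocyte sums overlapped between groups in every comparison, with T and NK cell sums of 37.8 to 41.9 with competent, against 36.9 to 38.8 with deficient, T cells. The perforin gene Prf1 changed by 1.10 ± 0.35 there (adjusted p = 0.0629). The part of these markers in the Slamf8 values was not tested, and in sorted bulk samples fewer cells of a type and less RNA per cell cannot be told apart.

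**Figure D5:**
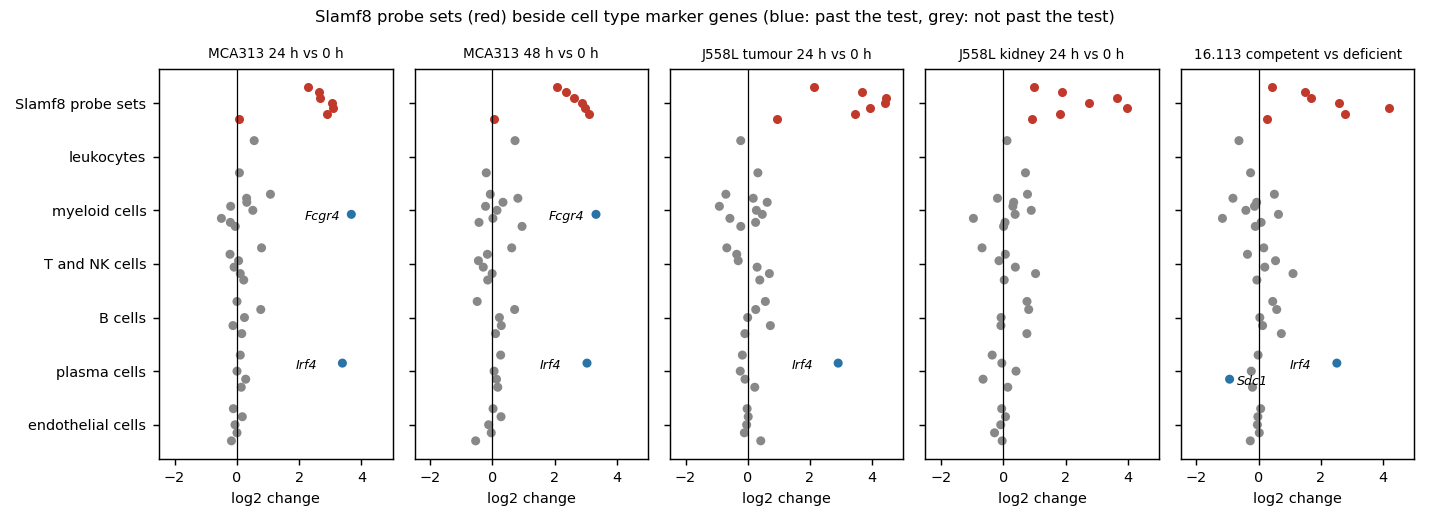
Log2 change (horizontal axis) of the 7 Slamf8 probe sets (red) and of tested marker genes of 6 cell types, 1 point per probe set or gene, in each comparison against a control. Blue points passed the test and carry their gene name, and grey points did not pass. Fcgr4 (3.67 and 3.33) is blue in the MCA313 panels alone and Irf4 in 4 panels.

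Likeness between genes over the 26 arrays was computed at the brightest probe set of each gene, which for Slamf8 was 17229932 alone. Each value was taken minus the mean of the control group of its set. The genes most like Slamf8 at that probe set were C130026I21Rik (r = 0.92), Socs3 (0.896), Id2 (0.875), Ifi205 (0.866) and Ifi207 (0.84). Likeness to the other Slamf8 probe sets, which did not respond alike, was not computed. The points share arrays and the 9 group means, so r is a description. Ifi205 and Ifi207 belong to the interferon-inducible Ifi200 family, Socs3 encodes a feedback inhibitor of cytokine signalling and Id2 a regulator of transcription. Those closest to Slamf6 had lower r, with A530032D15Rik at 0.653, Ankfy1 at 0.639, Rhbdd1 at 0.628, Mir342 at 0.623 and Maml1 at 0.622.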

How the data were processed

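The authors deposited normalized log2 expression values. The submitters' processing notes name Affymetrix Expression Console and limma without versions. The sources used here do not give the normalization method. The table's 65535 probe sets cover 5109 genes, 1292 of them on chromosome 1, and other genes were not analysed here. Shares, ranks and likeness over all genes or probe sets therefore describe this table and not the whole genome. Arrays shared at least 6.35% of their exact values within a set and at most 0.00458% between sets, the basis for treating the sets as separately normalized. Array medians were 5.78 to 5.88 (MCA313), 6.42 to 6.46 (J558L tumour), 6.33 to 6.40 (kidney) and 5.62 to 5.79 (16.113). For arrays, their number limits the precision.

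Probe sets were named by the platform annotation, in which 766 had several symbols and 10912 none. A gene was read at the probe set with the highest mean. Genes and probe sets were kept if above the array's 50th percentile in at least 2 arrays. All 26 arrays entered 1 linear model of 9 group means (limma 3.58.1 under R 4.3.3), with moderated two-sided tests and Benjamini-Hochberg adjustment over 4386 genes or 45204 probe sets. The pipeline was tested on simulated data.

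The members and lists were chosen with earlier results of these data known. Named beside the members were, for each member past the gene-level test, the 5 most correlated genes, up to 4 genes per list past the test or 2 of the largest where none passed, and Pecam1. Ptprc, Cd68 and the genes named after a failed test outside that rule were chosen with their values in view. Other settings tried were no filter, a stricter one (75th percentile), quantile normalization, averaged probe sets, trended robust variance, array weights, a replicate block, fewer arrays in the fit, and leaving out each array.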

Additional observations from a re-analysis of the deposited data

Results flagged for a closer look

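Dixon's test could be run only in the group of 5 arrays with IFNγ-deficient T cells, the only group large enough. There 8 of the 78 SLAM probe sets (10.3%) were flagged, each for 1 array above the other 4. The nominal rate is about 1 in 20. The share flagged over all probe sets was not computed, so an excess in this family cannot be read from these flags. Among Slamf8 probe sets, 17229932 read 8.19 in replicate 2, with the others between 7.15 and 7.44, and 17229938 read 4.45 in replicate 1, with the others between 4.16 and 4.21. Cd84 probe set 17219427 read 6.4 in replicate 1, with the others between 4.31 and 4.59. Among Slamf6 probe sets, 17219437 read 4.09 in replicate 5, 17219442 read 4.31 in replicate 3 and 17219446 read 3.71 in replicate 1, each with the others at or below 3.40. Among Slamf7 probe sets, 17229791 read 5.13 in replicate 4 and 17229793 read 4.46 in replicate 3. Apart from the Slamf8 probe set 17229932 and the Cd84 probe set 17219427, these values lay below the array medians.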

How the results depend on the processing

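Counts of SLAM genes and probe sets past the test were recomputed under every alternative, and 235 of 269 stayed within 1.5 times the reported count. The 235 include counts that were 0 in both fits, so they do not measure how steady the counts above 0 were. The other 34 moved further. Fitting only the arrays of the sets compared left 0 probe sets in MCA313 at 24 h and at 48 h and in J558L tumour, 1 in kidney and 2 in 16.113 tumours, and 0 genes in MCA313 at both times and in 16.113 tumours. With the replicate block 3 probe sets passed in MCA313 at 24 h, 3 at 48 h and 3 in J558L tumour, and 0 genes in 16.113 tumours. Same-numbered arrays correlated by -0.144 to 0.113 in their deviations, and same-numbered tumour and kidney arrays of J558L mice by -0.034 to 0.01. Deviations within groups of 2 to 5 arrays sum to 0, so these correlations cannot tell whether same-numbered arrays came from the same mice. The labels do not say so either, and the main fit did not pair the arrays. At 48 h in MCA313, 3 probe sets passed without the filter and 3 with quantile normalization. In 16.113 tumours 0 genes passed with the stricter filter, under which Slamf6 was not tested, and 0 with array weights. In kidney 1 gene, Slamf8, passed under array weights, and 1, again Slamf8, when its probe sets were averaged. Leaving out 1 array in turn gave 0 to 1 genes in MCA313 at 24 h, at 48 h, in J558L tumour and in 16.113 tumours, and 1 to 5 probe sets in MCA313 at 24 h, 1 to 5 at 48 h, 1 to 4 in J558L tumour, 4 to 4 in kidney and 3 to 5 in 16.113 tumours. For the 16.113 response minus the J558L tumour response it gave 0 to 1 probe sets. The Cd48 change from 24 h to 48 h in MCA313, 0.45 with all arrays, was -0.026 without 24 h replicate 1 and 0.93 without 24 h replicate 2. Of 1793 recomputed log2 changes, 101 lost a call, 15 gained one and the others stayed on their side of the threshold. The sign was opposite in 83, with 0 of these past the test in either fit and 0 of them Slamf8 changes against a control. Apart from the smaller number of arrays or genes in some fits, the cause was not tested.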

Other observations

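The list of neighbours of the SLAM genes on chromosome 1 held 35 symbols, with old and current names of Nectin4 and Cfap45 both counted. Of these neighbours 32 genes were tested, and none passed the test in more than 1 comparison with a control. In 16.113 tumours 5 of 32 neighbours passed, against 7.36% of all genes. In kidney 2 passed, against 3.17% of all, and in MCA313 at 48 h 1 passed, against 1.37% of all. In 16.113 endothelium with competent T cells Dedd, which encodes a death effector domain protein, rose by 0.88 ± 0.23 (adjusted p = 0.0195). There 4 neighbours fell, among them 3 by over 0.8. Igsf8, an immunoglobulin superfamily gene, fell by 1.11 ± 0.29, Pigm, an enzyme gene of lipid anchor synthesis, by 0.88 ± 0.20 and the peroxisome import gene Pex19 by 0.81 ± 0.16. In kidney endothelium at 24 h the sodium pump gene Atp1a4 rose by 1.59 ± 0.41 and Ncstn, a subunit gene of gamma-secretase, fell by 0.86 ± 0.23. In MCA313 tumours at 48 h Casq1, which encodes a calcium store protein of muscle, fell by 1.67 ± 0.37 (adjusted p = 0.0261). In J558L tumours and in MCA313 tumours at 24 h 0 of 32 neighbours passed with limma, against 0.547% and 0.684% of all genes.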
